A study of Rattus norvegicus with 3 samples.

Results

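The distal calcium and magnesium handling genes are 10 genes chosen by symbol: Trpv5, Calb1, S100g, Slc8a1, Atp2b1, Trpm6, Cnnm2, Slc12a3, Pvalb and Casr. A probe set carrying a single gene symbol was available for 9 of them, out of 15037 genes of the array so named, and each of the 9 was read by 1 probe set. Trpm6 has no value here. The values came from kidneys of male Wistar rats, 7 weeks old, in 3 groups: a control group injected intraperitoneally with double distilled water, a group examined 2 days after thallium sulfate (Tl 2 days) and a group examined 5 days after it (Tl 5 days). The Tl injections were intraperitoneal, and the sources differ on the dose: the study's methods describe a single injection of 30 mg/kg, the series design gives that amount daily, and the sample labels give 40 mg/kg daily. Some rats of the Tl 5 days group died before the planned time and were counted in that group. Total RNA was hybridized to a Clariom S rat array, 1 array per group, and the number of rats behind each array is not given in the sources used here. The labels also name spleen as the source, while the titles name kidney.

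The kidney takes back the last part of the filtered calcium and magnesium in the distal convoluted tubule and the connecting tubule. There calcium enters the cell from the urine side through the channel Trpv5, is carried across the cytoplasm by calbindins, and leaves on the blood side through the sodium/calcium exchanger Slc8a1 and the plasma membrane calcium pump Atp2b1. Magnesium enters through Trpm6, while Cnnm2, on the blood side, is needed for its normal reabsorption. Upstream, the thick ascending limb reabsorbs both ions between its cells, under the control of the calcium-sensing receptor Casr.

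With 1 array per group there is no replicate error, so no difference below was tested and each describes these arrays only. Values are log2 signals as deposited, a difference of 1 is 2-fold, and both comparisons with control use the same control array. In kidney tissue, fewer cells of a type and less RNA per cell cannot be told apart. On the control array 9 proximal tubule markers had log2 signals of 12.08 to 18.82, whereas 4 T cell markers had 3.02 to 5.87 and the B cell marker Cd79b 3.38. The kidney markers were thus bright and the lymphocyte markers measured were dim. A reference for dim signals was given by 63 ERCC spike-in probe sets, which had the same 95th percentile (6.83) and the same highest value (9.28) on all 3 arrays. Their median (4.02) was the same as well, so they show nothing of variation between arrays. The 1153 negative control probe sets ran higher, with a 95th percentile of 10.94 on the control array, 11.04 on the Tl 2 days array and 10.99 on the Tl 5 days array. Past 2-fold, 8.33% of them were higher and 11.6% lower at Tl 2 days than in control, and 10.9% were higher and 7.89% lower at Tl 5 days. The highest negative control was 19.93 in control, 19.75 at Tl 2 days and 19.85 at Tl 5 days, so the set is not a plain background. Most genes lay under its 95th percentile. A gene under that level on all 3 arrays cannot pass 2-fold from control once raised to it. Such a gene then shows only the gap between the levels of the arrays, 0.10 and 0.05. Gapdh, a glycolytic enzyme often used for scaling, was itself higher by 0.65 at Tl 2 days and by 0.63 at Tl 5 days, and every difference from control is smaller by that amount relative to it. The sign then turns for positive differences under these values, which among the genes named below are those of Trpv6, Wnk4, Vdr, Cldn19, Scnn1b, Scnn1g, Cdh5 and Sall3 at Tl 2 days and of Atp2b1, S100g, Nipa2 and Acta2 at Tl 5 days.

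Of the 9 measured genes, 5 were over 2-fold lower at Tl 2 days than in control (Calb1, Casr, Slc8a1, Slc12a3 and Cnnm2) and 1 was over 2-fold higher (Trpv5). The same 5 genes were over 2-fold lower at Tl 5 days, and Trpv5 was again over 2-fold higher. Among all 15037 genes, 4.65% were over 2-fold lower and 6.03% over 2-fold higher at Tl 2 days, and 4.87% and 5.37% at Tl 5 days. The split of all genes depends on scaling, since 56.4% of those past 2-fold were higher at Tl 2 days as deposited and 46.2% after each array was centred on its gene median. The median difference of the 9 genes was -1.41 at Tl 2 days and -1.27 at Tl 5 days, beside a median of 0 over all genes in both. Atp2b1, S100g and Pvalb stayed within 2-fold at both times.

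**Figure D1:**
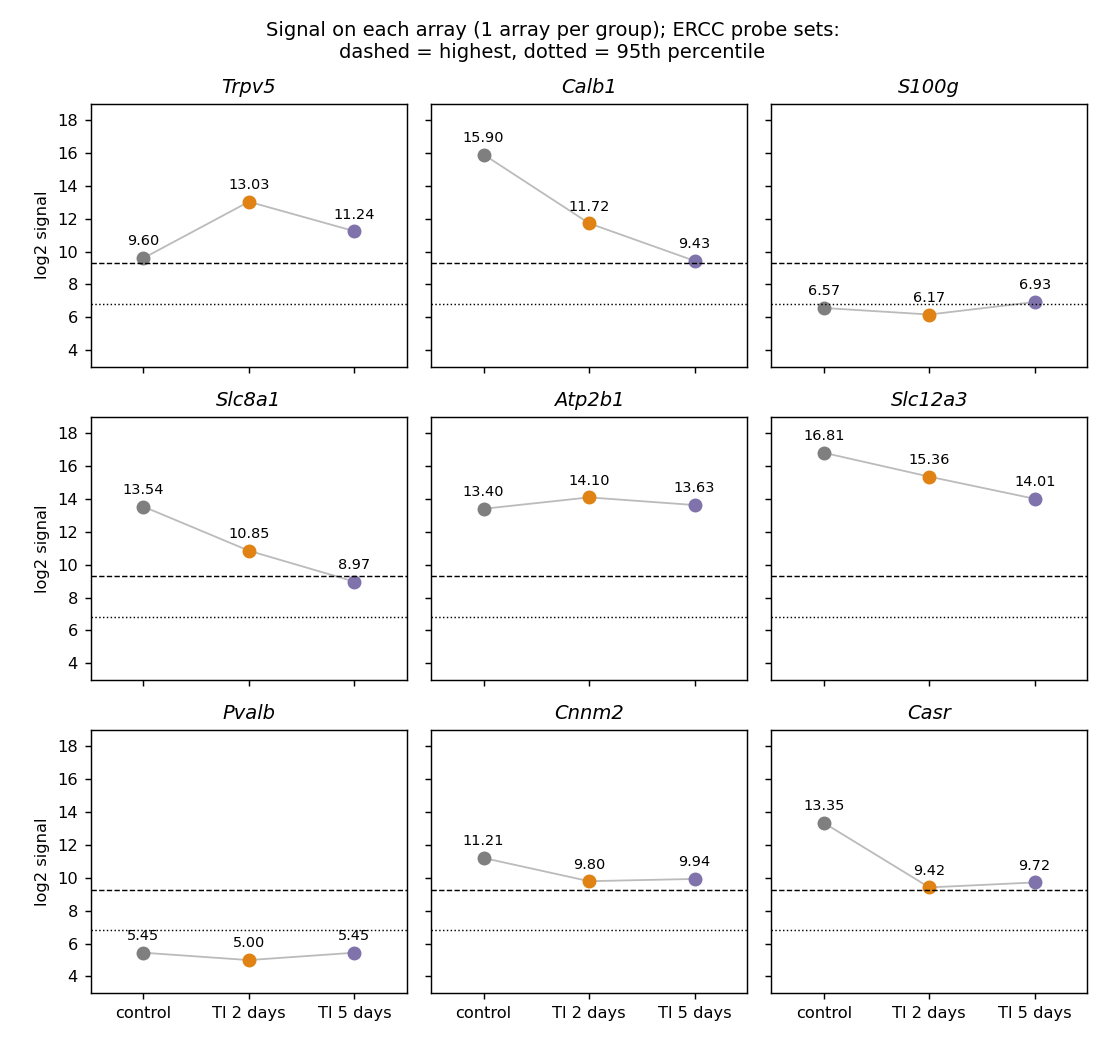
Log2 signal (vertical axis) of the 9 measured genes on the control, Tl 2 days and Tl 5 days arrays (horizontal axis), each point 1 array. The dashed line is the highest ERCC value (9.28) and the dotted line their 95th percentile (6.83). Calb1, Slc8a1 and Slc12a3 step down at each time, Casr and Cnnm2 are low at both times, and Trpv5 peaks at 2 days.

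For the genes past 2-fold, the 100 bases before the start of transcription are shown as RefSeq gives them on GRCr8, to set the sequence upstream of Trpv5, the gene with higher signals, beside that of genes with lower ones. The table of promoters matched 8 of the 10 genes by symbol, all but Calb1 and S100g. The stretches are chr4:71529383-71529482 on the minus strand for Trpv5, chr6:19023459-19023558 on the plus strand for Slc8a1, chr19:10675051-10675150 on the minus strand for Slc12a3, chr11:77740514-77740613 on the plus strand for Casr and chr1:255585052-255585151 on the plus strand for Cnnm2. Capitals mark a match on either strand to TATAAA (the TATA box) or AGGTCA (a core site of nuclear receptors).
Trpv5: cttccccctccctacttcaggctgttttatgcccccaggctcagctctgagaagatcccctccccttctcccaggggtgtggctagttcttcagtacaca
Slc8a1: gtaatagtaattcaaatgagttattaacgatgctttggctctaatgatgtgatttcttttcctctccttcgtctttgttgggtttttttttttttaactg
Slc12a3: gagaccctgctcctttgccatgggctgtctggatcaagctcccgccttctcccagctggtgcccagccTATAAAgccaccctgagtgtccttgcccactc
Casr: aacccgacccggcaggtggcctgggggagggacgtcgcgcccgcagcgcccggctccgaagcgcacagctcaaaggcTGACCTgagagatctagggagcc
Cnnm2: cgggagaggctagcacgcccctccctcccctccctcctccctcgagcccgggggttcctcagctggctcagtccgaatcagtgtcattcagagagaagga
Within the full windows of 300 bases, from 250 before to 50 after the start, TATAAA was found in 1 of the 8 genes, Slc12a3, where it begins at position -32 on the gene's strand. It was found in 14.2% of all 33469 promoters of the same length. AGGTCA occurred in Casr alone, on the other strand and with its leftmost base at -23, against 16.2% of all promoters. TGACGTCA, the cyclic AMP response element, and the pair of AGGTCA repeats 3 bases apart that the vitamin D receptor binds were in 0 of the 8, against 1.83% and 0.0239% of all promoters. The Trpv5, Slc8a1 and Cnnm2 windows matched none of these letters. A match describes the letters of the window only. For all 5 genes shown, the start used lies inside the outer limits of the gene in the same annotation, and no value here says which start was in use.

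Trpv5, the channel for calcium entry from the urine, had a log2 signal of 9.60 in control, 13.03 at Tl 2 days and 11.24 at Tl 5 days. Both Tl arrays lay above the control array, with the higher value at 2 days. The difference was 3.43 at Tl 2 days, a 10.8-fold higher signal and rank 77 from the top among all genes. It was 1.64 at Tl 5 days, a 3.12-fold higher signal and rank 307. The control value was only a little over the highest ERCC value, and 11.2% of the negative control probe sets of that array had at least this signal. With every value raised to the 95th percentile of the negative controls of its array, the difference was 2.09 at Tl 2 days and 0.30 at Tl 5 days, so at 5 days it was no longer over 2-fold.

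Calb1 encodes calbindin D28k, the buffer that ferries calcium across the cell. Its log2 signal was 15.90 in control, 11.72 at Tl 2 days and 9.43 at Tl 5 days, a step down at each time. The value at Tl 2 days was 18.2-fold lower than control, a difference of -4.18, rank 10 from the bottom of all genes. The value at Tl 5 days was 88.6-fold lower, a difference of -6.47, rank 9 from the bottom. The 5 days value was close to the highest ERCC value, and 11.6% of the negative controls of that array reached it. With the values raised to the 95th percentile of the negative controls the difference at 5 days was -4.91.

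S100g encodes calbindin D9k, a smaller calcium buffer. It was dim on every array, with log2 signals of 6.57 in control, 6.17 at Tl 2 days and 6.93 at Tl 5 days. Between 44.8% and 55.0% of the negative controls had at least these signals. The differences from control were -0.40 and 0.36, and neither reached 2-fold.

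Slc8a1, the exchanger that trades intracellular calcium for sodium on the blood side, followed the order of Calb1. Its log2 signal was 13.54 in control, 10.85 at Tl 2 days and 8.97 at Tl 5 days. It was 6.43-fold lower at Tl 2 days than in control (difference -2.68) and 23.7-fold lower at Tl 5 days (difference -4.56). The 5 days value lay below the highest ERCC value, and 15.4% of the negative controls reached it. With the values raised to the 95th percentile of the negative controls the difference at 5 days was -2.54, still over 2-fold lower.

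Atp2b1, the other exit for calcium and a pump found in most cell types, did not reach 2-fold. Its log2 signal was 13.40 in control, 14.10 at Tl 2 days and 13.63 at Tl 5 days. The differences were 0.69 and 0.23, and relative to Gapdh on the same array they were 0.04 and -0.41, so the sign at 5 days depends on the scaling. As deposited, the entry channel and both exit routes therefore had 3 different profiles. Trpv5 was higher than control, Slc8a1 was lower and Atp2b1 was within 2-fold. At Tl 5 days this depends on the processing. With dim values raised to the negative control level used above, Trpv5 differed by 0.30 and Atp2b1 by 0.23 at that time. Both were then within 2-fold, while Slc8a1 differed by -2.54. Relative to Gapdh, Trpv5 differed by 1.01 at Tl 5 days, only just past 2-fold.

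**Figure D2:**
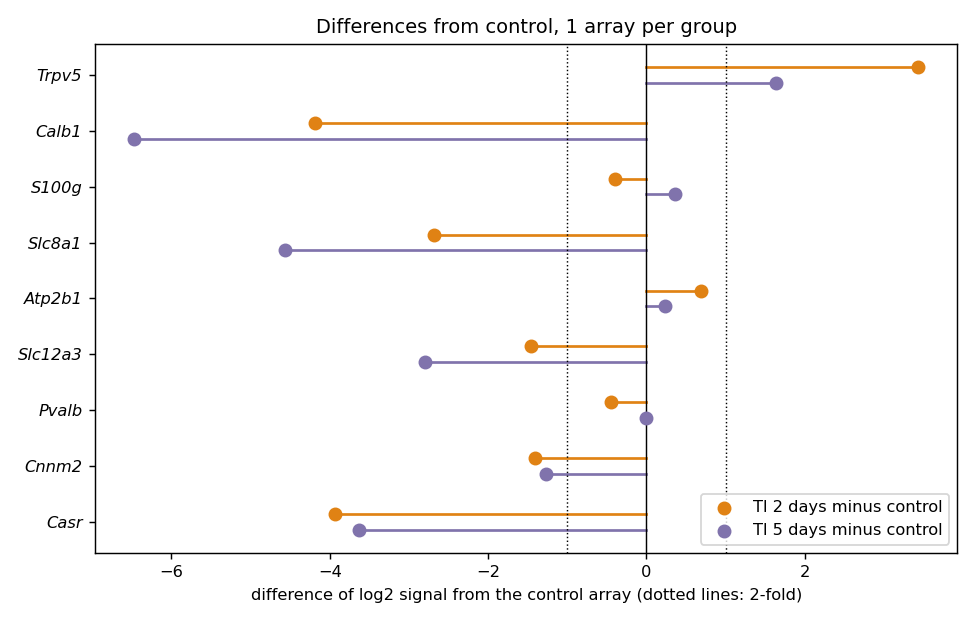
Difference of log2 signal from the control array (horizontal axis) for each of the 9 genes (vertical axis), with the Tl 2 days group above the Tl 5 days group, 1 array each. Dotted lines mark 2-fold. Calb1 reaches -6.47 and Trpv5 is the only gene past 2-fold on the right.

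Slc12a3, the thiazide-sensitive sodium chloride cotransporter that defines the distal convoluted tubule, had a log2 signal of 16.81 in control, 15.36 at Tl 2 days and 14.01 at Tl 5 days. It was lower at each time but stayed bright, since 1.65% of the negative controls reached the value at 5 days. The value at Tl 2 days was 2.74-fold lower than control (difference -1.45) and that at Tl 5 days 6.98-fold lower (difference -2.80). Pvalb encodes parvalbumin, a calcium buffer of the early distal convoluted tubule and of fast skeletal muscle. Its log2 signals of 5.45 in control, 5.00 at Tl 2 days and 5.45 at Tl 5 days were all dim, and at least 69.0% of the negative controls had higher or equal signals on each array. The Tl 5 days value equalled the control value exactly, as it did for 20.2% of all genes. Of the distal convoluted tubule markers, only Slc12a3 thus gave a bright signal, since Trpm6 and Emx1 have no value and Sall3, a transcription factor of that segment, was dim as well (5.11, 5.24 and 4.99 in control, at 2 days and at 5 days). The 4 skeletal muscle markers had log2 signals of 5.30 or less on all arrays.

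Cnnm2, a membrane protein of the blood side whose mutation in humans causes low blood magnesium, had a log2 signal of 11.21 in control, 9.80 at Tl 2 days and 9.94 at Tl 5 days. Both Tl values were lower than the control value and close to each other. The value at Tl 2 days was 2.66-fold lower than control (difference -1.41) and that at Tl 5 days 2.42-fold lower (difference -1.27). The control value was only slightly above the 95th percentile of the negative controls, and with all values raised to that level the differences were -0.17 and -0.22, no longer past 2-fold. Casr, the receptor that senses blood calcium in the thick ascending limb, had a log2 signal of 13.35 in control, 9.42 at Tl 2 days and 9.72 at Tl 5 days. It was 15.2-fold lower at Tl 2 days than in control (difference -3.93), rank 15 from the bottom of all genes, and 12.3-fold lower at Tl 5 days (difference -3.63). Both Tl values lay just over the highest ERCC value, and with the floor of the negative controls the differences were -2.31 and -2.36. Outside the nephron Casr is best known from the parathyroid gland, whose markers Pth and Gcm2 had log2 signals of 2.52 to 3.16 over the 3 arrays.

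The Tl arrays were also compared with each other, which leaves out the control array. Of the 9 genes, 4 were over 2-fold lower at Tl 5 days than at Tl 2 days and 0 were over 2-fold higher, against 3.07% and 2.21% of all genes. The 4 were Calb1 (-2.29), Slc8a1 (-1.88), Trpv5 (-1.79) and Slc12a3 (-1.35). Calb1, Slc8a1 and Slc12a3 were thus lower at each step, and Trpv5 was nearer to the control value at 5 days. Casr differed by 0.30 and Cnnm2 by 0.14 between the Tl arrays, and both were already low at 2 days. For Calb1, Slc8a1, Casr and Cnnm2 the dim end of the scale limits this comparison. With the floor of the negative controls Calb1 differed by -0.73, within 2-fold. Slc8a1, Casr and Cnnm2 lay under that floor on both Tl arrays, so it leaves nothing of their steps between 2 and 5 days.

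**Figure D3:**
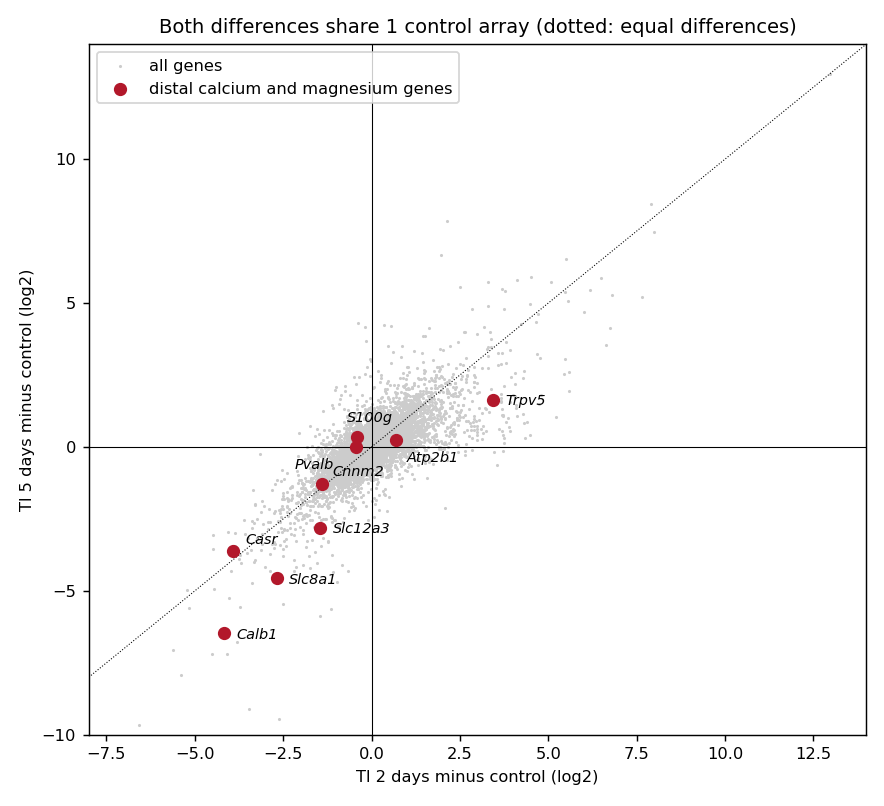
Difference from control at Tl 2 days (horizontal axis, log2) against that at Tl 5 days (vertical axis, log2) for 15037 genes in grey and the 9 genes in red; both axes use the same control array. Calb1, Slc8a1 and Slc12a3 lie below the dotted line of equal differences, Casr and Cnnm2 near it, and Trpv5 to its right with 3.43 and 1.64.

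Other genes of calcium and magnesium transport were read next. Of 8 paralogs of the calcium transporters, none was past 2-fold upward at Tl 2 days and 1 was lower, with 1 higher and 1 lower at Tl 5 days. Trpv6, the channel most like Trpv5 and close to it on the chromosome, was dim in every group at 4.39, 4.99 and 5.17 in control, at 2 days and at 5 days. Trpv4, a calcium-permeable channel that responds to swelling, differed by -0.70 at Tl 2 days and 1.03 at Tl 5 days. The pumps Atp2b4 (-1.04 and -0.59) and Atp2b3 (-0.84 and -1.16, and dim on all arrays) were lower in both. Of 11 general magnesium transporters, 1 was over 2-fold higher at Tl 2 days and 0 at Tl 5 days, with 0 lower at both times. That gene was Slc41a1, a magnesium transporter, at 1.18 and 0.90. Trpm7, the widely expressed relative of Trpm6, differed by only -0.08 and -0.12, Magt1, a membrane protein linked to magnesium uptake, by -0.51 and -0.82, and Nipa2, a magnesium transporter, by 0.93 and 0.12. With dim values raised to the 95th percentile of the negative controls, 0 genes of either list were past 2-fold at either time. For most of these genes that count was fixed in advance, since they lay under that level on every array. Only Trpm7, Magt1 and Nipa2, and Trpv4 at Tl 5 days, rose over it. With the floor Trpv4 differed by 0.44 at Tl 5 days, and the differences of Trpm7, Magt1 and Nipa2 stayed as given above.

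Distal magnesium uptake also depends on genes of salt transport and on epidermal growth factor. Of 7 measured genes of this kind, 4 were over 2-fold lower and 1 higher at Tl 2 days, and 3 lower and 1 higher at Tl 5 days, with medians of -1.23 and -0.94. Egf, the growth factor that activates Trpm6, had a log2 signal of 18.81 in control, 15.35 at Tl 2 days and 9.69 at Tl 5 days. It had the largest difference of this list, -9.12 at 5 days, which the same floor made -7.82, while its receptor Egfr differed by 1.07 and 0.86. Kcnj10, a potassium channel of the blood side that is needed for salt and magnesium uptake, had a log2 signal of 9.19 in control, under the highest ERCC value, and 4.71 and 5.65 at Tl 2 days and Tl 5 days, under the ERCC 95th percentile. The size of its differences (-4.47 and -3.53) therefore rests on dim values. Its partner Kcnj16 differed by -0.42 at Tl 2 days and 1.47 at Tl 5 days. Bsnd, the subunit of the kidney chloride channels, differed by -2.36 and -1.79 with both Tl values under the highest ERCC value, and Fxyd2, the gamma subunit of the sodium pump, by -1.23 and -0.94. With the floor of the negative controls, Kcnj10, Bsnd and Egfr were within 2-fold at both times, which left 2 genes lower and 0 higher at Tl 2 days, and 1 lower (Egf) and 1 higher (Kcnj16) at Tl 5 days.

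Of 7 measured regulators of Slc12a3, 0 were over 2-fold higher and 2 lower at Tl 2 days, and 2 and 2 at Tl 5 days. The lower ones were the kinases Wnk1 (-1.44 and -1.47) and Stk39 (-1.26 and -2.04), of which Wnk1 activates Stk39 and Stk39 phosphorylates the cotransporter. Wnk4, another kinase of this chain, differed by 0.37 and 1.40, with all 3 values under the floor of the negative controls. Sgk1, an aldosterone-induced kinase, differed by -0.04 and 2.45. Of 9 proteins that act on Trpv5, 2 were over 2-fold higher and 3 lower at Tl 2 days, and 3 and 3 at Tl 5 days, so the list went both ways. Sgk1, already counted for Slc12a3, was among those higher at Tl 5 days. Anxa2 (3.67 and 2.87) and S100a10 (3.30 and 2.74), which form the complex that carries the channel to the cell surface, were higher. Klotho (Kl, -1.37 and -3.18), tissue kallikrein (Klk1, -1.42 and -3.46) and uromodulin (Umod, -2.63 and -9.46), which keep the channel at the surface or activate it, were lower. The 5 days value of Umod, 9.24, lay under the highest ERCC value, and with the floor of the negative controls its difference was -7.70 and that of Klk1 -1.92. With that floor S100a10 differed by 1.55 at Tl 2 days and by 0.99 at Tl 5 days, just within 2-fold. Umod is made in the thick ascending limb, and Anxa2 and S100a10 in many cell types, and the part of other cells in their signals was not tested.

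In the calciotropic hormone list, 1 of 9 genes was over 2-fold higher and 3 were lower in each Tl group. Kl, already counted among the proteins that act on Trpv5, was 1 of the 3. Cyp24a1, the enzyme that breaks down active vitamin D, had a log2 signal of 10.70 in control, 16.19 at Tl 2 days and 17.23 at Tl 5 days. The differences of 5.49 and 6.53 stood beside 0.15 and 0.91 for Vdr, the vitamin D receptor. Calb1 and Trpv5 are, like Cyp24a1, textbook targets of that receptor, and of these 3 genes Calb1 was lower and the others were higher. With the floor of the negative controls Trpv5 differed by only 0.30 at 5 days. S100g, the other calbindin, was dim and within 2-fold (-0.40 and 0.36). Pth1r, the receptor for parathyroid hormone, differed by -1.27 and -1.02, and Esr1, an estrogen receptor, by -2.30 and -2.82. Both Tl values of Esr1 lay under the highest ERCC value, and with the floor of the negative controls it was within 2-fold, which left 2 genes of the list lower in each Tl group.

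**Figure D4:**
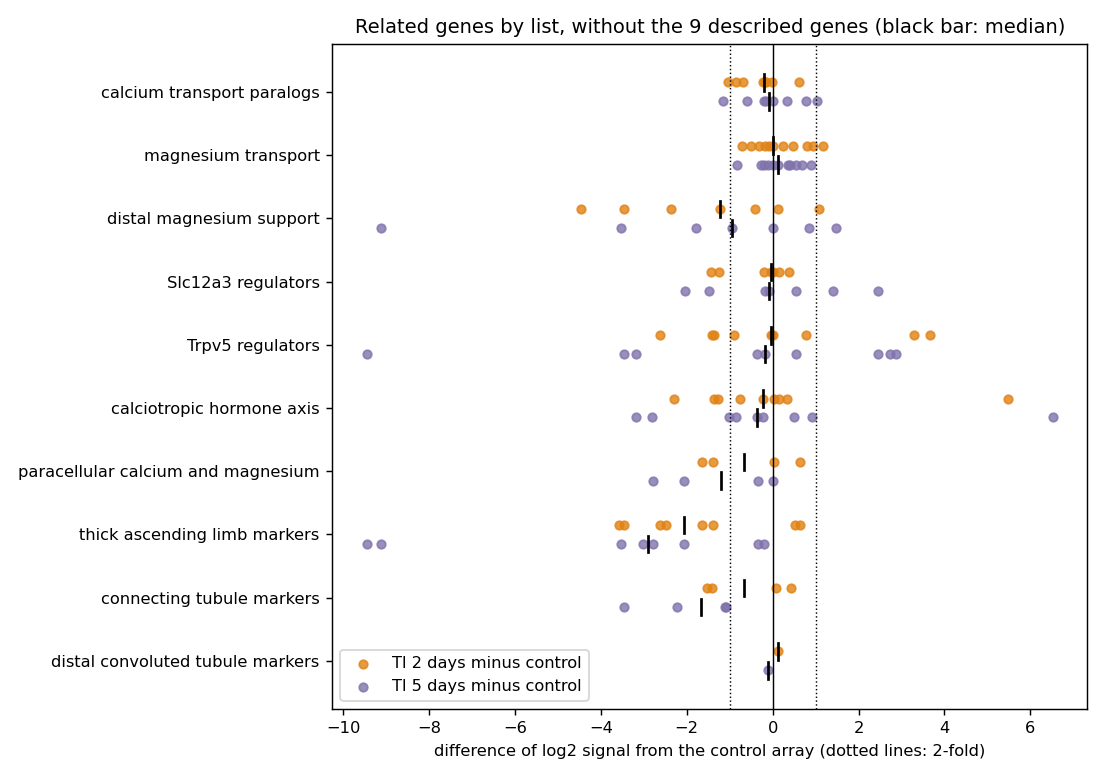
Difference of log2 signal from the control array (horizontal axis) for the genes of each related list (vertical axis), Tl 2 days above Tl 5 days, 1 point per gene and black bars at the medians; the 9 genes described above are left out. Trpv5 regulators lie on both sides of 0, while 6 of the 8 thick ascending limb markers lie past 2-fold on the left at both times.

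Markers of the segments were compared without the 9 genes. Of the 4 other connecting tubule markers, 2 were over 2-fold lower at Tl 2 days and all 4 at Tl 5 days, namely Klk1, Hsd11b2 (-1.52 and -1.08), Scnn1b (0.09 and -1.11) and Scnn1g (0.44 and -2.23). Klk1 was already counted among the proteins that act on Trpv5. Scnn1g was under the highest ERCC value on all 3 arrays (8.45 in control, 8.88 at Tl 2 days and 6.22 at Tl 5 days), and with the floor of the negative controls only Klk1 and Hsd11b2 were past 2-fold. Of 8 thick ascending limb markers, 6 were over 2-fold lower and 0 higher at both times, with medians of -2.07 and -2.91 and the same counts with the floor. Among the 6 were the cotransporter Slc12a1 (-3.59 and -3.03) and Egf and Umod, already counted in other lists above. Tight junction genes of the path between the cells of that limb were part of this list. Cldn16 differed by -1.39 and -2.06 and Cldn10 by -1.64 and -2.79, while Cldn19 differed by 0.64 and -0.34. Calb1, Slc8a1, Slc12a3 and Casr were lower at both times too, while Trpv5 was higher. The part of these marker shifts in those differences was not tested. The 9 proximal tubule markers had 0 over 2-fold higher and 2 lower at 2 days, and 2 higher and 1 lower at 5 days, with medians of -0.41 and 0.04, and with Cubn (0.95 and 2.15), Slc34a1 (-1.19 and -1.44) and Slc22a8 (-0.41 and 1.33) farthest from control. Of 5 principal cell markers 4 were lower at 2 days and 2 at 5 days, namely Aqp2 (-2.09 and -2.52) and Avpr2 (-1.43 and -1.67) at both times and Aqp3 (-1.40 and -0.67) and Scnn1a at 2 days. Avpr2 was under the ERCC 95th percentile on all arrays, and with the floor of the negative controls 1 of the 5 was lower at each time. Of 5 intercalated cell markers, Slc4a1 (-3.60 and -2.53) and Atp6v1b1 (-1.66 and -1.82) were lower at both times, also with the floor, while Foxi1 differed by -0.18 and -0.94. Endothelial markers had 0 of 6 lower at 2 days and 3 of 6 at 5 days, which were Cdh5 (0.32 and -1.52), Emcn (-0.84 and -1.51) and Kdr (-0.27 and -1.21), and 1 of 6 at 5 days with the floor. Podocyte markers had 0 of 3 and 2 of 3 lower, Podxl (-0.02 and -1.46) and the dim Wt1 (-0.17 and -1.12), with Nphs1 at -0.15 and -0.62, and 1 of 3 at 5 days with the floor. Of 4 smooth muscle markers, Tagln (1.80 and 1.52) was higher at both times and Myh11 (-0.44 and -1.14) lower at 5 days. Acta2 differed by 0.80 and 0.03. With the floor 0 of the 4 were past 2-fold, but only Acta2 rose over it, at Tl 2 days, so the others could not pass. Macrophage markers had 2 of 6 over 2-fold higher in each Tl group, led by Cd68 (1.55 and 2.06), Itgam (0.97 and 2.01) and Csf1r (1.16 and 0.97), with log2 signals of 4.22 to 7.62 in control, 4.53 to 8.51 at Tl 2 days and 4.53 to 9.02 at Tl 5 days, all below the highest ERCC value, and with Adgre1 and Cd163 equal on all 3 arrays.

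For the 6 genes past 2-fold, the genes with the nearest pair of differences from control were listed out of 8101 genes above the 95th percentile of the ERCC values on at least 1 array, with distance measured on the log2 scale over 2 differences that share 1 control array. Trpv5 was nearest to Tubb6, a tubulin (3.42 and 1.64), and Rbm3, a cold-induced RNA-binding protein (3.66 and 1.60). Calb1 had only 1 gene within a distance of 0.5, Hnmt, the enzyme that inactivates histamine (-3.81 and -6.77), followed by Slco1a6, an organic anion transporter (-4.09 and -7.19). Slc8a1 had 2 within that distance, the transporter Slc22a25 (-2.70 and -4.69) and Cyp2c24, a cytochrome P450 (-2.87 and -4.29). Casr had 5, of which Cyfip2 (-3.85 and -3.44) and Tnfrsf11b, the decoy receptor osteoprotegerin (-3.72 and -3.76), were the nearest. Slc12a3 had 19, led by St6gal1, a sialyltransferase (-1.44 and -2.85), and Casq1, a calcium-binding protein (-1.39 and -2.82). Cnnm2 had 205, led by Ntn1 (-1.42 and -1.31) and Epb41l1 (-1.36 and -1.28), so its profile was a common one. A near pair of values says nothing of shared function.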

How the data were processed

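Kidney RNA was read on 3 Clariom S rat arrays, with 1 array for each group. The deposited values are log2 signals of 24834 probe sets, made by the authors, whose methods name Transcriptome Analysis Console. Summarization and normalization are not given in the sources used here, and the log base of 2 was inferred from the range of the values and from folds the study gives. Through the platform annotation 15049 probe sets carried 1 gene symbol, 0 carried several and 9785 are unnamed here. Probe sets of 1 gene were averaged (10 genes), which gave 15037 genes. Differences of log2 values and counts past 2-fold were computed, and the counting was checked on simulated arrays. No p-value can come from 1 array a group, and precision is limited by the number of arrays. The genes and lists were chosen with earlier results of these data known. Of each related list up to 3 genes with the largest absolute difference from control are named, except that the T cell and skeletal muscle lists, dim on all arrays, and the reference genes other than Gapdh are given by range or not at all. Trpv6, Trpm7, Egfr, Kcnj16, Fxyd2, Wnk4, S100a10, Vdr, Pth1r, Hsd11b2, Scnn1b, Scnn1g, Scnn1a, Adgre1, Cd163 and the paracellular and thick ascending limb genes beyond 3 were added for their role after their values were seen. Alternatives were quantile normalization, median centring, values relative to Gapdh, floors at the 20th percentile of genes or the 95th percentile of ERCC probe sets, a filter at the 40th percentile of genes, the probe set with the highest mean and limits of 1.5-fold and 3-fold. Floors at the highest ERCC value and at the 95th percentile of the negative controls were added after seeing the data. Promoters came from RefSeq (GRCr8), and 1 motif searched in them is not reported here. Scripts ran in Python 3.11.15 with matplotlib 3.10.9, pandas 2.3.3 and numpy 2.4.6.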

Additional observations from a re-analysis of the deposited data

Results flagged for a closer look

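For 10 of the genes named above, the difference from control had opposite signs at Tl 2 days and Tl 5 days. With 1 array at each time, whether these differences themselves differ was not tested. S100g (-0.40 and 0.36), Sall3 (0.14 and -0.11) and Scnn1g (0.44 and -2.23) did so with all 3 values under the highest ERCC value, and for Scnn1g the value at 5 days, 6.22, was under the ERCC 95th percentile as well. Trpv4 (-0.70 and 1.03), Kcnj16 (-0.42 and 1.47), the kinase Sgk1 (-0.0388 and 2.45) and the transporter Slc22a8 (-0.41 and 1.33) were within 2-fold of control at 2 days and over 2-fold higher at 5 days. Trpv4 lay under the floor of the negative controls in control and at 2 days, and with that floor it differed by 0.44 at 5 days. Scnn1b (0.0886 and -1.11) and the endothelial cadherin Cdh5 (0.32 and -1.52) were within 2-fold at 2 days and over 2-fold lower at 5 days, and with that floor Scnn1b differed by -0.71 and Cdh5 by -0.67 at 5 days. Cldn19 (0.64 and -0.34) stayed within 2-fold at both times.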

How the results depend on the processing

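Across the scalings and floors, no difference of the 9 genes past 2-fold turned its sign. This was nearly fixed in advance, since the scalings shifted no difference by more than about 0.65 and a floor draws values together. Fold limits and the filter leave each difference as it is. Counts of the 9 genes moved by over 1.5 times in these settings: with a limit of 1.5-fold, 2 were higher at Tl 2 days and 1 was higher at Tl 5 days than at Tl 2 days; with a limit of 3-fold, 3 were lower at Tl 2 days; and with the floor at the 95th percentile of the negative controls, chosen after seeing the data, 0 were higher at Tl 5 days and 2 were lower at Tl 5 days than at Tl 2 days. Of all genes, 906 were higher and 699 lower at Tl 2 days, 807 and 732 at Tl 5 days, and 333 and 461 at Tl 5 days against Tl 2 days. In the same order the counts were 229 and 237, 274 and 249, and 105 and 92 with the floor of the negative controls. With the floor at the highest ERCC value, also chosen after seeing the data, they were 391 and 359, 420 and 378, and 159 and 167. A limit of 1.5-fold gave 1806 and 1611, 1686 and 1499, and 958 and 1154, and a limit of 3-fold 402 and 258, 328 and 289, and 90 and 203. Relative to Gapdh, whose own signal was 0.65 and 0.63 higher at Tl 2 and 5 days, the median of all genes shifted by -0.65 and -0.63, 375 genes were higher and 2792 lower at Tl 2 days, 310 and 2456 at Tl 5 days, and S100g (-1.05) and Pvalb (-1.10) passed the limit at Tl 2 days. Centring shifted the median by -0.12 at Tl 2 days. No paired analysis was possible because each group held 1 array, and for the same reason no array could be left out. Dim signals limit Calb1 and Slc8a1 at 5 days, Casr and Cnnm2 after Tl, and Trpv5 in control.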
